A study of Mus musculus with 786 samples.

Results

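The multipotent progenitors of mouse bone marrow were measured as bulk RNA-seq libraries of MPP1, MPP2, MPP3 and MPP4, with the haematopoietic stem cell (HSC) library as their reference. These 5 libraries were taken by their column names from a bulk table of 18 sorted populations, in a series of 786 samples that otherwise consists mainly of single HSC and MPP1 cells. Each library was made from 1000 cells sorted from the marrow of C57BL6 mice aged 6 to 8 weeks, and there was 1 library per population. A difference between these libraries therefore has no replicate check, and none of the values below carries an error or a test. The values are FPKM, fragments per kilobase of transcript scaled to the mapped fragments of the library, as the authors deposited them.

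The labels give the gates as surface markers. MPP1 was sorted as CD48-CD150+CD135-CD34+, MPP2 as CD48+CD150+CD135-CD34+, MPP3 as CD48+CD150-CD135-CD34+ and MPP4 as CD48+CD150-CD135+CD34+. The bulk HSC library carries the same label as MPP1, CD48-CD150+CD135-CD34+, whereas the single HSC of the same series are labelled CD34-. The labels name no transgene or treatment for the bulk libraries, and they do not say how many mice were pooled.

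Multipotent progenitors stand between the stem cell and the committed progenitors of blood. They have lost lasting self-renewal, divide more often than stem cells, and differ in the lineages they feed. In the usual scheme MPP2 leans to the megakaryocyte and erythroid lineages, MPP3 to granulocytes and monocytes, and MPP4 to lymphocytes, while MPP1 stands closest to the stem cell. The gates rest on CD150 (Slamf1) and CD48, a pair of SLAM-family adhesion molecules, on CD135 (Flt3), the receptor for the cytokine Flt3 ligand, and on CD34, a sialomucin of progenitor cells.

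The 5 libraries lay far apart across all genes. Of the 18855 genes in the table, 3392 reached an FPKM of 1 in MPP1, 3825 in MPP2, 3635 in MPP3, 4107 in MPP4 and 2866 in HSC. Among genes with an FPKM of 10 or more in either library, 60.9% to 64.0% were 4-fold or more apart (in FPKM + 1) in each pair among MPP2, MPP3 and MPP4, and 72.2% to 78.1% were so between each MPP and HSC. As a yardstick, the 2 neighbouring granulocyte-monocyte gates GMP-7 and GMP-11 were 4-fold apart at 32.0% of genes, and the gate CLP Sca1 high differed from CLP at 65.0%. Of 14 housekeeping genes, 10 ranged over 4-fold or more across the 5 libraries, with a median range of 5.92-fold. The highest gene held 45236 FPKM in MPP1 (Cox4i1, a subunit of cytochrome c oxidase) and 13479 in HSC (Tuba1b, a tubulin), and the 10 highest genes took 41.8% of the total in MPP1, 20.2% in MPP2, 18.6% in MPP3, 18.8% in MPP4 and 40.5% in HSC.

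The number of fragments per library is not in the files, but low FPKM values fell on steps whose spacing gives the relative depth. By these steps MPP4 was sequenced 3.07 times as deeply as MPP2, MPP3 1.66 times, MPP1 1.53 times and HSC 1.34 times. MPP4 was thus the deepest and MPP2 the shallowest of the 5, and values far below 1 FPKM rest on few fragments.

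One feature of the MPP3 library bears on every comparison with MPP4. Of 320 genes with an FPKM of 100 or more in MPP4, all but 7 stood in MPP3 at no less than 2.14% of their MPP4 level. This share is the lower percentile 2 by construction, but 38 genes were packed between it and 1.2 times it, where MPP2 set against MPP1 in the same way had 6. The lower edge of the MPP3 values thus ran as a straight line along the MPP4 values, as the plot of MPP3 against MPP4 shows. No such edge was seen for MPP2 against MPP4, as the right panel of that plot shows. A fainter edge linked HSC to MPP1: of 208 genes with an FPKM of 100 or more in MPP1, all but 5 stood in HSC at 0.569% or more of their MPP1 level, with 22 genes in the same narrow band. The cause was not tested. Apart from 2 RNAs listed at 0 in MPP3, no gene of MPP4 stood more than 43.3-fold over the next MPP, against up to 289-fold for genes of MPP2 and 479-fold for genes of MPP3.

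**Figure D1:**
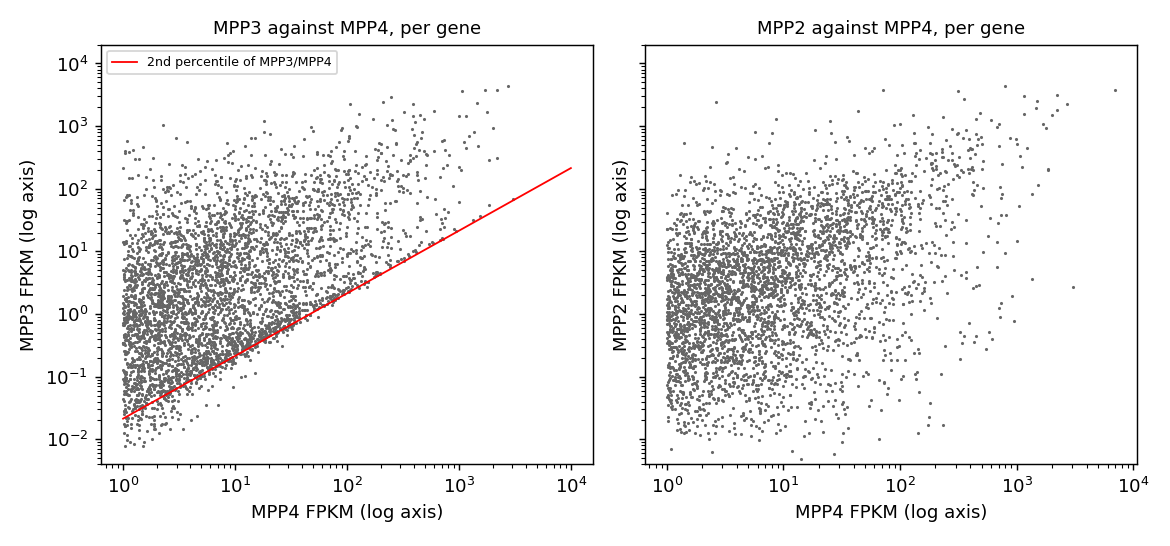
Each point is 1 gene, with its FPKM in MPP4 on the horizontal axis and its FPKM in MPP3 (left) or MPP2 (right) on the vertical axis, both logarithmic, for genes above 1 FPKM in MPP4 and 0.004 FPKM in the second library. The red line marks 2.14% of the MPP4 level, along which most of the MPP3 points end, with a few below it, while the MPP2 points have no straight lower edge.

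Cd34 and Flt3 differed widely between the libraries, whereas Slamf1, Cd48 and Ly6a were poorly caught as RNA. Cd34 stood at 1786 FPKM in MPP1, 455 in MPP2, 687 in MPP3 and 1226 in MPP4, against 25.2 in HSC. All 4 MPPs, whose gates are CD34+, were thus far above the HSC library, whose bulk label is CD34+ as well. Flt3 stood at 231 FPKM in MPP4, the CD135+ gate, against 5.69 in MPP1, 0.0171 in MPP2, 13.6 in MPP3 and 0.332 in HSC. Slamf1 stood at 1.42 FPKM in MPP1, 0.0241 in MPP2 and 0 in MPP3 and MPP4, against 1.36 in HSC, so the CD150+ gate of MPP2 was not seen in its RNA. Cd48 stood at 0.0441 FPKM in MPP1, 0.411 in MPP2, 1.25 in MPP3 and 1.01 in MPP4 and was listed at 0 in HSC. These levels were low throughout and rest on few fragments, so no order of the gates is read from them. Kit, the stem cell factor receptor, lay between 19.2 and 54.9 FPKM in all 5 libraries, and Ly6a, which encodes Sca-1, reached at most 0.626.

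The 4 marker genes given for these populations each stood highest in a different MPP. Meis1, a homeobox factor of stem cells, stood at 1615 FPKM in MPP1, 249 in MPP2, 34.2 in MPP3 and 748 in MPP4, against 179 in HSC. Its higher level in MPP1 than in HSC was not seen in the single cells described below. Gata2, a zinc-finger factor of stem, mast and megakaryocyte-erythroid cells, stood at 1306 FPKM in MPP2, against 56.5 in MPP1, 351 in MPP3, 8.65 in MPP4 and 128 in HSC. Fli1, an ETS factor of megakaryocytes and early progenitors, stood at 430 FPKM in MPP3, against 17.7 in MPP1, 72.6 in MPP2, 179 in MPP4 and 30.4 in HSC. Of these 4, only Flt3 in MPP4 was 4-fold over each of the other MPPs. Gata2 in MPP2 was 3.71-fold over MPP3, its nearest neighbour.

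Genes that separate an MPP were taken as those with an FPKM of 10 or more there and a level 4-fold or more over each of the other 3 MPPs in FPKM + 1. Of 3144 genes with an FPKM of 10 or more in at least 1 MPP, 377 separated MPP2 (12.0%), 407 separated MPP3 (12.9%) and 434 separated MPP4 (13.8%). By the same rule 342 genes separated MPP1 (10.9%). The counts were thus of one size for the 4 libraries. HSC was left out of the rule, and 331 of the 377 MPP2 genes, 370 of the 407 MPP3 genes and 387 of the 434 MPP4 genes were also 4-fold or more over HSC. HSC was 4-fold higher than the MPP at 3 genes of each set. The rule picks genes for a high level in the MPP, so it favours these counts and nothing is read from them. Among all genes with an FPKM of 10 in either library, 51.5%, 52.7% and 52.8% were 4-fold higher than HSC in MPP2, MPP3 and MPP4. In turn 25.3%, 25.4% and 23.5% were 4-fold lower. With HSC held to the same rule against all 4 MPPs, 262 of 3409 genes (7.69%) stood out in HSC. Of the 377 MPP2, 407 MPP3 and 434 MPP4 genes, 15, 14 and 16 belonged to any of 24 lists of lineage, cell-cycle and stress genes. The same share was not taken over the 3144 tested genes, so nothing is read from these counts. The separating genes were seldom particular to the MPPs: 81.4% of the MPP2, 81.1% of the MPP3 and 81.8% of the MPP4 genes reached an FPKM of 10 in another of the 13 bulk populations outside the HSC and MPP gates, beside 86.0% of all 3144 tested genes.

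Across all genes with an FPKM of 1 in an MPP, 22.2% stood highest in MPP1, 25.7% in MPP2, 24.0% in MPP3 and 28.1% in MPP4, and the lists below are read beside these shares.

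Megakaryocyte and erythroid genes stood highest in MPP2 or MPP1, the 2 CD150+ gates. The 22 measured megakaryocyte genes summed to 86.9 FPKM in MPP1, 232 in MPP2, 57.2 in MPP3 and 58.2 in MPP4, against 49.3 in HSC, and the 24 measured erythroid genes to 345, 219, 22.0 and 60.9 FPKM in MPP1 to MPP4, against 111 in HSC. Of 8 erythroid genes with an FPKM of 1 in an MPP, 6 stood highest in MPP2 and the other 2 in MPP1. Of 11 megakaryocyte genes, 5 stood highest in MPP1 and 4 in MPP2, with 1 each in MPP3 and MPP4. Of 11 transcription factors of the megakaryocyte-erythroid programme, 5 stood highest in MPP2, 3 in MPP3, 2 in MPP1 and 1 in MPP4. Of 27 listed erythroid and 24 megakaryocyte genes only 2 and 3 reached an FPKM of 10 in an MPP, so these counts rest mainly on low values. The megakaryocyte sum of MPP2 came mostly from Serpine2 and Plek, and the erythroid sum of MPP1 mostly from Aqp1.

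Gata1, the master factor of erythroid and megakaryocytic cells, stood at 25.1 FPKM in MPP2 and 20.2 in MPP1, against 0.0683 in MPP3, 0.0370 in MPP4 and 0.539 in HSC. It was therefore shared by the 2 CD150+ MPP gates and near 0 in both CD150- gates. Tal1, its partner in erythroid complexes, stood at 20.4 FPKM in MPP2, against 7.18 in MPP1, 0.296 in MPP3, 5.63 in MPP4 and 0.808 in HSC. Zfpm1, the Gata1 cofactor FOG-1, reached 3.54 FPKM in MPP2 and at most 0.427 in the other 4 libraries.

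Serpine2, a serine protease inhibitor that megakaryocyte progenitors express, stood at 109 FPKM in MPP2, against 10.6 in MPP1, 0.168 in MPP3, 0.0605 in MPP4 and 0.0693 in HSC. It was the one megakaryocyte gene that separated MPP2, at 9.43-fold over MPP1, and among the other 13 bulk populations it was highest in the megakaryocyte progenitor MKP, at 251 FPKM. Plek, the platelet kinase substrate pleckstrin, stood at 91.2 FPKM in MPP2, against 15.2 in MPP1, 47.5 in MPP3, 51.4 in MPP4 and 14.1 in HSC. Rab27b, which acts in platelet granule secretion, stood at 33.8 FPKM in MPP1 and 7.88 in MPP2, against 0.00264 in MPP3, 0.00750 in MPP4 and 0.311 in HSC.

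The erythroid genes that reached high levels did not keep to MPP2. Car2, carbonic anhydrase 2, stood at 112 FPKM in MPP2, against 63.5 in MPP1, 17.2 in MPP3, 58.3 in MPP4 and 86.6 in HSC. Aqp1, the water channel of the red cell, stood at 271 FPKM in MPP1 and 83.2 in MPP2, against 1.69 in MPP3, 0.509 in MPP4 and 10.2 in HSC. Its high bulk MPP1 level was not seen in the single MPP1 cells described below. Among the other 13 populations both were highest in the megakaryocyte-erythroid gate MEP, at 785 FPKM of Aqp1 and 1147 of Car2, and stood at 498 and 1054 in the erythroid gate ProEry. Klf1 and Epor, the erythroid factor and the erythropoietin receptor, stayed under 1 FPKM in all 5 libraries. Nfe2, a factor of platelet formation, ran the other way and separated MPP3, at 166 FPKM, against 6.48 in MPP1, 18.2 in MPP2, 13.9 in MPP4 and 2.5 in HSC. Runx1, a factor of blood stem cells and megakaryocytes that stands on the same factor list, separated MPP4 at 59.4 FPKM, against 0.321 in MPP1, 0.591 in MPP2, 1.8 in MPP3 and 1.14 in HSC. No factor of that list separated MPP2.

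The 15 genes farthest from the other MPPs in MPP2 stood 110- to 289-fold over the next MPP, and none is a blood lineage gene of the lists. The first was Ankrd13b, an ankyrin-repeat protein, at 335 FPKM in MPP2, against 0.161 in MPP1, 0.0342 in MPP3, 0.0247 in MPP4 and 0.155 in HSC. Numb, which restrains Notch signalling, stood at 2961 FPKM in MPP2, against 10.3 in MPP1, 0.83 in MPP3, 0.34 in MPP4 and 1.2 in HSC. Nr3c2, the mineralocorticoid receptor, stood at 140 FPKM in MPP2 and at no more than 0.0896 in the other MPPs and HSC, and its highest level in the other 13 populations was 0.0311. The other 12 were Homez, 9630050M13Rik, Ccnyl1, Adnp, E130308A19Rik, Blcap, Ppm1l, Nedd9, 4931406H21Rik, Clec4a1, 2610036D13Rik and Atrx.

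MPP3 held more granulocyte-monocyte RNA than the other libraries. Of 17 genes of that lineage with an FPKM of 1 in an MPP, 8 stood highest in MPP3, 5 in MPP4, 3 in MPP2 and 1 in MPP1. The 32 genes of the list summed to 38.1 FPKM in MPP1, 106 in MPP2, 561 in MPP3 and 216 in MPP4, against 66.7 in HSC. Most of the MPP3 sum came from Elane and Mpo. Elane (listed as Ela2) and Ly6c2 separated MPP3, and no gene of the list separated another MPP.

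The proximal promoters of the 2 highest granule genes of MPP3 are shown because the genes stood high together there. They are from RefSeq, build GRCm38.p6, plus strand, from 250 bases before to 50 bases after the gene start, and the capitals mark GAGGAAGT, a form of the site of the ETS factor PU.1 searched on both strands. Elane lies at chr10:79886062-79886361 and Mpo at chr11:87793534-87793833.
Elane: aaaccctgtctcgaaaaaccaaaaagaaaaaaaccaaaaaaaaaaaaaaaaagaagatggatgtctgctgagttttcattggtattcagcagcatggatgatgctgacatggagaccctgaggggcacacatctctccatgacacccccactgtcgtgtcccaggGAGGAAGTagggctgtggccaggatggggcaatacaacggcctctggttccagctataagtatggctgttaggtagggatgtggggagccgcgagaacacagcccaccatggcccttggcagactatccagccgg
Mpo: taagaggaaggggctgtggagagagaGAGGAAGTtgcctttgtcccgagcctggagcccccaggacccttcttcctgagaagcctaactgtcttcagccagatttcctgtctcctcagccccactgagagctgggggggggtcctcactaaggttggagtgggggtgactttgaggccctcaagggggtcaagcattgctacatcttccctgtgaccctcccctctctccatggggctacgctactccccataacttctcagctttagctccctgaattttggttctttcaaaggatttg
Each window holds the motif once, 85 bases before the start in Elane and 224 bases before it in Mpo. Of all 27025 promoters of this length, 3.28% hold it, against 4.49% of the 334 MPP3 separating genes with a promoter in the table and 3.36% of 2561 tested genes. A match is a description of the letters only.

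Elane encodes neutrophil elastase, a protease of the primary granules. It stood at 272 FPKM in MPP3, against 0.595 in MPP1, 49.4 in MPP2, 8.6 in MPP4 and 0 in HSC. Mpo, the granule enzyme myeloperoxidase, stood at 150 FPKM in MPP3 and 106 in MPP4, against 0.652 in MPP1, 28.0 in MPP2 and 0.212 in HSC. Mpo was thus shared by MPP3 and MPP4, whereas Elane stood 5.41-fold over its nearest MPP. Both were several times higher again in the committed gates, with 1055 FPKM of Elane and 1004 of Mpo in GMP-7 and 2932 and 1257 in GMP-11.

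Ly6c2, a surface antigen of monocytes, stood at 25.6 FPKM in MPP3, against 3.34 in MPP2 and 0.362 in MPP4, and was listed at 0 in MPP1 and HSC. Irf8, the factor of monocytes and dendritic cells, stood at 58.0 FPKM in MPP3 and 28.0 in MPP4, against 0.0595 in MPP1, 0.387 in MPP2 and 9.92 in HSC. Spi1, which encodes PU.1, was near level in the CD48+ gates, at 7.97 FPKM in MPP2, 10.3 in MPP3 and 8.21 in MPP4, and was listed at 0 in MPP1 and stood at 0.0413 in HSC. Cebpa, the factor that starts granulocyte development, stood highest in MPP4, at 14.6 FPKM, against 0.305 in MPP1, 0.0983 in MPP2 and 3.19 in MPP3 and 0 in HSC. Prtn3, proteinase 3, went against the rest of the list with 22.5 FPKM in MPP1, 0.516 in MPP2, 12.9 in MPP3 and 19.1 in MPP4 and its highest level, 51.0, in HSC.

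The mast cell, basophil and eosinophil genes were mostly low and were split between MPPs. Of 6 with an FPKM of 1 in an MPP, 3 stood highest in MPP3, 2 in MPP2 and 1 in MPP4. Lmo4, an adaptor protein expressed in many tissues, was the highest of the list and separated MPP4 at 160 FPKM, against 1.73 in MPP1, 1.18 in MPP2, 14.8 in MPP3 and 0.114 in HSC. It made up nearly all of the list's sum of 159.9 FPKM in MPP4, against 52.5 in MPP3. Hdc, the enzyme that makes histamine, separated MPP3 at 20.0 FPKM, against 0 in MPP1, 0.111 in MPP2, 0.00898 in MPP4 and 0 in HSC. Gzmb, granzyme B, stood at 9.66 FPKM in MPP3 and was listed at 0 in the other 4. Cpa3, the mast cell carboxypeptidase, stood at 5.83 FPKM in MPP3 and at most 0.353 in the others. Of the 16 genes of this list, 10 stayed under an FPKM of 1 in every MPP.

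The 15 genes farthest out in MPP3 stood 120- to 479-fold over the next MPP. The first was Angel1, at 582 FPKM in MPP3, against 0.0851 in MPP1, 0.0325 in MPP2, 0.217 in MPP4 and 2.08 in HSC. Id1, an inhibitor of basic helix-loop-helix factors, stood at 133 FPKM in MPP3, was listed at 0 in MPP1, MPP2 and HSC, and stood at 0.119 in MPP4 and no higher than 0.269 in any other bulk population. Ednra, the endothelin A receptor, stood at 162 FPKM in MPP3 and at no more than 0.0451 in the other MPPs and HSC. Bub1, a kinase of the spindle checkpoint, is described with the cell cycle. The other 11 were Pdcd7, Usp25, Nudt7, Ppapdc2, Ndufab1, Atp6v1c1, Usp8, 1200003C05Rik, Mdfi, Asxl2 and Fbxo11.

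MPP4 held the largest share of lymphoid RNA. Of 17 lymphoid genes with an FPKM of 1 in an MPP, 9 stood highest in MPP4, 4 in MPP3, 3 in MPP1 and 1 in MPP2. The 31 measured genes of the list summed to 199 FPKM in MPP1, 92.4 in MPP2, 725 in MPP3 and 2302 in MPP4, against 439 in HSC. Most of the MPP4 sum came from Satb1 and Flt3, and Lsp1 alone gave 433 FPKM of the HSC sum. Satb1, Notch1 and Flt3 separated MPP4, though Flt3 is also the gene of the MPP4 gate. Bcl11a separated MPP3 and Lax1 separated MPP1.

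Satb1, a chromatin organiser of lymphoid progenitors, stood at 1342 FPKM in MPP4, against 1.78 in MPP1, 3.62 in MPP2, 31.3 in MPP3 and 0.0163 in HSC. Its MPP3 level was 2.33% of its MPP4 level, at the edge described above. In the other populations it was highest in the common lymphoid progenitor CLP, at 394 FPKM, and stood at 289 in preGM. Notch1, the receptor that directs T cell fate, stood at 15.2 FPKM in MPP4, against 0.00851 in MPP1, 0.0194 in MPP2, 0.372 in MPP3 and 0.0145 in HSC. Flt3, given above, was 15.9-fold over MPP3 and reached 376 FPKM in CLP and 104 in CMP.

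Il2rg, the common gamma chain of cytokine receptors, stood at 159 FPKM in MPP3 and 79.7 in MPP4, against 1.25 in MPP1, 1.49 in MPP2 and 0.748 in HSC. It was thus far higher in the 2 CD150- gates than in the CD150+ gates. Bcl11a, a factor of early B cells and of the globin switch, stood at 246 FPKM in MPP3, against 0.864 in MPP1, 16.4 in MPP2, 20.4 in MPP4 and 0.222 in HSC. Dntt, the terminal transferase of lymphoid precursors, reached 2.95 FPKM in MPP4 and at most 0.224 in the others, and Il7r and Rag1 stayed at 0.194 or less in all 5.

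The genes farthest out in MPP4 lay along the MPP3 edge. Snora62 and Snora64, 2 small nucleolar RNAs listed under the accessions NR_002902 and NR_002897, headed the list with 9359 and 1043 FPKM in MPP4 and 0 in the other 4 libraries, and FPKM of such short transcripts can be inflated. The next 13 stood 35.4- to 43.3-fold over MPP3, and 11 of them had an MPP3 level between 2.14% and 2.57% of the MPP4 level. They were Lrrc8d, Ufd1l, Mmd, Satb1, Lars, Eif4enif1, Jarid2, Ddi2, 1700054N08Rik, Oasl2, Bard1, Heatr5b and E2f8. Of all 434 MPP4 genes, 94 (21.7%) lay in that narrow band and 39 below it, 2 of these listed at 0 in MPP3 and the others at 0.755% or more, and MPP3 was the next MPP for 268 of them. Lrrc8d, a subunit of volume-regulated channels, stood at 3051 FPKM in MPP4, against 3.41 in MPP1, 2.68 in MPP2, 69.5 in MPP3 and 2100 in HSC, so it set MPP4 apart from the MPPs but not from HSC.

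**Figure D2:**
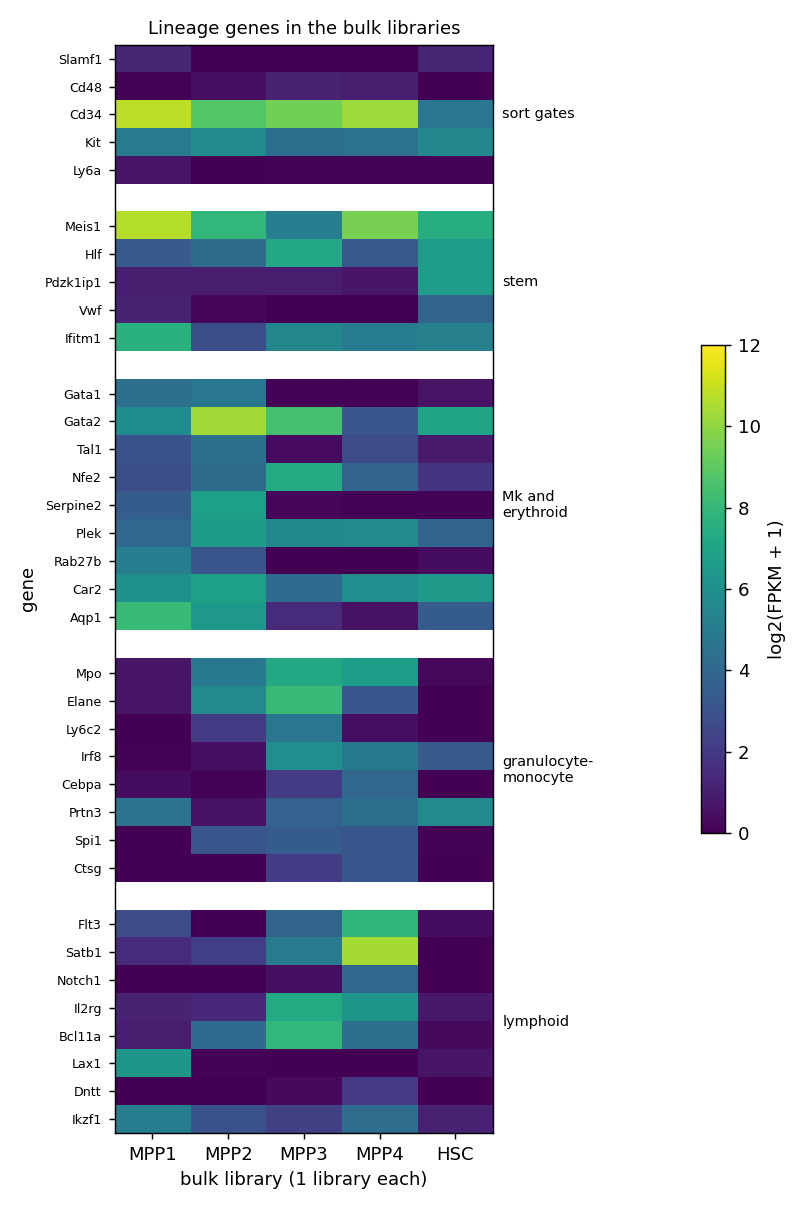
Rows are genes of the gates and of 4 lineages, columns the 5 bulk libraries with HSC on the right, and the colour is log2(FPKM + 1), 1 library per column. Gata2 is brightest in MPP2, Elane in MPP3, and Satb1 and Flt3 in MPP4, while Pdzk1ip1 and Vwf are brightest in HSC.

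Against HSC, more genes stood higher than lower in each MPP, but that balance depended on the scaling. Of the genes 4-fold apart, 54.9% were higher in MPP1, 67.1% in MPP2, 67.5% in MPP3 and 69.2% in MPP4. Median-of-ratios scaling of the 5 libraries brought these shares to 48.7%, 53.4%, 56.4% and 56.1%, and quantile normalization, which gives every library one distribution, to 49.8%, 50.0%, 50.0% and 50.2%. The median log2 difference from HSC over all genes with an FPKM of 10 in either library was 0.78 in MPP1, 2.17 in MPP2, 2.30 in MPP3 and 2.28 in MPP4 as deposited, and -0.12, 0.49, 0.96 and 0.82 after median-of-ratios scaling. The gene groups set against HSC are therefore read beside all genes.

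Of 28 measured stem cell genes few reached an FPKM of 10, and several of these did so in HSC alone. Of the genes of this list with an FPKM of 10 in either library, 2 of 7 were 4-fold higher and 3 of 7 lower in MPP1 than in HSC, beside 39.7% higher and 32.6% lower among all 1643 genes. For MPP2 the counts were 1 higher and 6 lower of 8, beside 51.5% and 25.3% of 1950 genes. For MPP3 they were 0 higher and 5 lower of 7, beside 52.7% and 25.4% of 1984. For MPP4 they were 1 higher and 4 lower of 7, beside 52.8% and 23.5% of 2055. Of the genes counted, 3 of 7 for MPP1, 4 of 8 for MPP2, 4 of 7 for MPP3 and 4 of 7 for MPP4 reached an FPKM of 10 in HSC alone, so the filter itself favours a lower level in the MPP, and nothing is read from the counts. Among the 15 stem cell genes with an FPKM of 1 in an MPP, 10 stood highest in MPP1, 3 in MPP2 and 1 each in MPP3 and MPP4. For MPP1 that is 66.7%, beside 22.2% of all genes. Only 6 genes of the list reached an FPKM of 10 in an MPP, so this share rests mainly on low values. Trim47, a ubiquitin ligase, was the one gene of the list to separate MPP2, at 12.2 FPKM, against 0.282 in MPP1, 0.0645 in MPP3, 0.0350 in MPP4 and 0.321 in HSC.

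Pdzk1ip1, a membrane protein that marks stem cells in reporter mice, stood at 1.00 FPKM in MPP1, 0.921 in MPP2, 0.874 in MPP3 and 0.679 in MPP4, against 105 in HSC. Vwf, von Willebrand factor, which marks platelet-biased stem cells, stood at 1.19 FPKM in MPP1, 0.142 in MPP2 and 0 in MPP3 and MPP4, against 13.9 in HSC. Hlf, a stem cell leucine-zipper factor, stood at 148 FPKM in MPP3, against 9.99 in MPP1, 18.0 in MPP2, 9.08 in MPP4 and 98.2 in HSC. Ifitm1, an interferon-induced membrane protein, stood at 202 FPKM in MPP1, against 6.48 in MPP2, 45.0 in MPP3, 33.0 in MPP4 and 37.0 in HSC. Procr, Fgd5 and Hoxb5, used as stem cell markers, stayed at 0.0699 or less in every MPP, and of these only Fgd5 passed an FPKM of 1 in HSC, at 5.45.

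The cell-cycle genes with the highest levels differed between the MPPs. Of the DNA replication genes with an FPKM of 10 in either library, 5 of 9 were 4-fold higher than in HSC in MPP1, 14 of 20 in MPP2, 10 of 13 in MPP3 and 11 of 16 in MPP4. Of the mitosis genes it was 4 of 6 in MPP1, 13 of 15 in MPP2, 8 of 10 in MPP3 and 13 of 15 in MPP4. These shares stand beside 39.7%, 51.5%, 52.7% and 52.8% among all genes for MPP1 to MPP4. Of the replication genes counted, 4 of 9 in MPP1, 15 of 20 in MPP2, 8 of 13 in MPP3 and 11 of 16 in MPP4 reached an FPKM of 10 in the MPP alone, and of the mitosis genes 4 of 6, 13 of 15, 8 of 10 and 13 of 15. The filter thus favours a higher level in the MPP, and the counts are given as a description. After quantile normalization 6 of 13 replication genes were 4-fold higher and 1 lower in MPP3, beside 37.5% and 37.5% of all genes. In MPP4 7 of 14 were higher and 3 lower, beside 37.3% and 36.9%. In MPP1 it was 7 of 13 and 2, beside 34.1% and 34.3%, and in MPP2 11 of 18 and 1, beside 36.4% and 36.4%. Of the mitosis genes 5 of 7 were higher and 1 lower in MPP1, and 9 of 11 and 1 in MPP2. In MPP3 5 of 9 were higher and 2 lower, and in MPP4 11 of 13 and 0.

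Mcm3, Mcm5 and Mcm7, subunits of the replicative helicase, shared one order of levels. Mcm3 stood at 132 FPKM in MPP1, 220 in MPP2, 333 in MPP3 and 417 in MPP4, against 39.3 in HSC. Mcm7 stood at 44.6 FPKM in MPP1, 63.9 in MPP2, 85.9 in MPP3 and 110 in MPP4, against 2.1 in HSC. Mcm5 stood at 6.6 FPKM in MPP1, 11.6 in MPP2, 19.9 in MPP3 and 30.3 in MPP4, against 3.02 in HSC. All 3 were highest in MPP4 and lowest in HSC. Myb, a factor that progenitors need to multiply, followed it too, with 472 FPKM in MPP1, 934 in MPP2, 1655 in MPP3 and 1796 in MPP4, against 17.5 in HSC. Mcm2 and Mcm6 did not follow it and were highest in MPP3, at 70.7 and 128 FPKM.

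No MPP held the replication list as a whole. Of 46 replication genes with an FPKM of 1 in an MPP, 16 stood highest in MPP2, 14 in MPP3, 10 in MPP4 and 6 in MPP1, which as shares is 34.8%, 30.4%, 21.7% and 13.0%. E2f2, a factor that starts replication gene transcription, separated MPP2 at 34.7 FPKM, against 0.0365 in MPP1, 0 in MPP3, 0.448 in MPP4 and 0 in HSC. Pola1, the catalytic subunit of polymerase alpha, separated MPP2 at 18.5 FPKM and Tipin, a fork protection factor, at 12.1. Genes of one machinery were thus split between libraries. Gins3, a helicase cofactor, separated MPP3 at 41.6 FPKM and Chaf1b, a histone chaperone subunit, at 30.6. Clspn, the checkpoint mediator claspin, separated MPP4 at 105 FPKM, against 0.106 in MPP1, 0.459 in MPP2, 3.74 in MPP3 and 0 in HSC. Prim2, the large primase subunit, separated MPP1 at 1358 FPKM, against 103 in MPP2, 5.06 in MPP3, 35.0 in MPP4 and 9.74 in HSC. Its higher level in bulk MPP1 than in bulk HSC was not seen in the single cells described below.

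Mitosis genes were scattered in the same way. Of 48 with an FPKM of 1 in an MPP, 15 stood highest in MPP4, 14 in MPP2, 10 in MPP3 and 9 in MPP1. Plk1, the polo-like kinase of mitotic entry, separated MPP3 at 1022 FPKM, against 5.68 in MPP1, 11.2 in MPP2, 120 in MPP4 and 0.225 in HSC. Bub1 separated MPP3 at 884 FPKM, against 0.876 in MPP1, 4.03 in MPP2, 0.319 in MPP4 and 0.0561 in HSC, and its highest level in the other 13 populations was 22.6 FPKM, in preGM. Aurka, a spindle kinase, and Cdc25b, a phosphatase that activates Cdk1, separated MPP3 at 15.4 and 17.7 FPKM. Cdk1 (listed as Cdc2a) and Birc5, which dividing cells express widely, stayed at 1.71 FPKM or less in all 5 libraries.

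Kif2c, a microtubule-depolymerising kinesin, separated MPP2 at 71.9 FPKM and Melk, a kinase of dividing progenitors, at 153. Neither passed 3.73 FPKM elsewhere among the 5. Prc1, which bundles the central spindle, separated MPP4 at 331 FPKM, against 3.9 in MPP1, 4.21 in MPP2, 20.0 in MPP3 and 2.02 in HSC. Ect2 and Anln, which act in the cleavage furrow, separated MPP4 at 73.4 and 19.2 FPKM, and Cdc20, an activator of the anaphase-promoting complex, at 57.6. Bub1b, the partner of Bub1, separated MPP1 at 39.1 FPKM. The kinases Bub1 and Bub1b, which act in one checkpoint, thus stood highest in different libraries.

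Among regulators of G1, Cdk6, the cyclin D kinase of progenitors, showed the widest range. It stood at 3682 FPKM in MPP2, against 6.09 in MPP1, 102 in MPP3, 314 in MPP4 and 4.58 in HSC, 11.7-fold over MPP4. Myc separated MPP2 at 546 FPKM, against 128 in MPP1, 82.4 in MPP3, 132 in MPP4 and 2.75 in HSC, with a distance of 4.12-fold that lies just inside the threshold. Ccnd2, a D-type cyclin, separated MPP3 at 78.1 FPKM, against 5.39 in MPP1, 6.49 in MPP2, 15.1 in MPP4 and 58.6 in HSC. Mycn stood highest in MPP1, at 49.2 FPKM.

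Inhibitors of the cycle stood highest in MPP2 in 5 of 13 cases, in MPP3 in 4 and in MPP1 and MPP4 in 2 each. Cdkn2c, the Cdk4 and Cdk6 inhibitor p18, separated MPP2 at 28.2 FPKM and stood at 1.85 in MPP3 and under 0.1 in MPP1, MPP4 and HSC. Rbl2, the pocket protein p130, separated MPP2 at 64.2 FPKM, and Txnip, a growth-restraining redox protein, at 42.1. Rbl1, the pocket protein p107, separated MPP1 at 153 FPKM, against 1.71 to 4.04 in the other MPPs and 1.16 in HSC. Btg2, an antiproliferative gene, stood at 91.0 FPKM in MPP3 and 54.3 in MPP4, against 0.0946 in MPP1, 5.66 in MPP2 and 0.0923 in HSC. Cdkn1c, the p57 inhibitor linked to stem cell quiescence, reached 1.11 FPKM in MPP1 and 0.0552 in HSC and was listed at 0 in MPP2, MPP3 and MPP4.

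**Figure D3:**
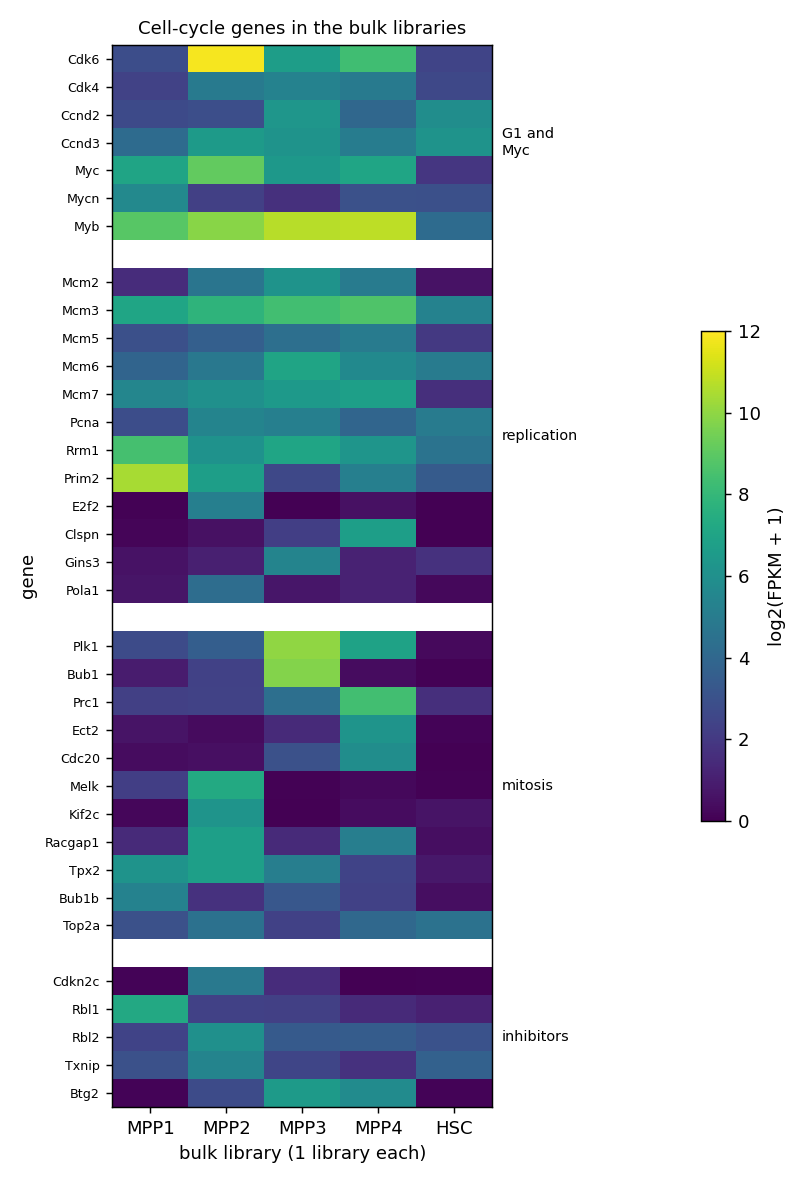
Rows are cell-cycle genes in 4 groups, columns the 5 bulk libraries with HSC on the right, and the colour is log2(FPKM + 1), 1 library per column. Cdk6 is brightest in MPP2, Plk1 and Bub1 in MPP3, and Prc1 and Clspn in MPP4, and most rows are dark in HSC.

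Stress and receptor genes also stood out in single MPPs. Il1r1, the interleukin-1 receptor, separated MPP4 at 22.7 FPKM and stood at 0.524 or less in the other 4. Of the interferon genes, Stat2 separated MPP2 at 268 FPKM, Oasl2 MPP4 at 241 and Usp18 MPP4 at 36.0, while Isg15 and Mx1 stayed under 0.1 FPKM in all 5. Of the immediate early genes, Jun separated MPP4 at 86.8 FPKM and Zfp36 MPP3 at 27.2, and Fos stood at 189 FPKM in MPP1, 0.513 in MPP2, 68.1 in MPP3 and 110 in MPP4, against 0.906 in HSC. Dnajb1, a heat-shock co-chaperone, separated MPP4 at 244 FPKM.

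Most markers of other cell types were under an FPKM of 1, and Vcam1 in MPP1, Axl in MPP2 and Cd79b in MPP2 and MPP4 passed 10. The summed level of 7 B and plasma cell genes lay between 0.165 and 16.3 FPKM over the MPPs and at 0.205 in HSC, nearly all of it from Cd79b, while Cd79a and Pax5 were listed at 0 in all 5 libraries. The 8 T and NK cell genes summed to at most 4.7 FPKM, the 8 neutrophil genes to at most 4.1, and the 9 macrophage genes to at most 16.9, the last in MPP2, where the receptor kinase Axl separated it at 15.6 FPKM. The 8 endothelial and stromal genes summed to 48.1 FPKM in MPP1, of which Vcam1 gave 47.8, and to at most 2.05 in the other libraries. In the single cells described below Vcam1 averaged 0 FPKM on every MPP1 and HSC plate, so its bulk MPP1 level was not seen there. The 14 genes of dendritic cells and MHC class II summed to at most 4.49 FPKM.

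The 13 other bulk populations were used to see where the separating genes stand later in development. Each gene was assigned to the branch of the population in which it was highest among these 13. Of 362 MPP2 genes seen there at an FPKM of 1, 57.2% were highest in a megakaryocyte, erythroid or megakaryocyte-erythroid population, beside 53.4% of 3082 tested genes. Of 397 MPP3 genes, 35.5% were highest in a granulocyte-monocyte population, beside 35.2%. Of 420 MPP4 genes, 14.5% were highest in a lymphoid population, beside 11.4%, and for the MPP3 genes that share was 14.9%. Of 322 MPP1 genes, 42.9% were highest in a granulocyte-monocyte population, the widest departure among the 4 sets. The shares given for the MPP2, MPP3 and MPP4 sets lay within 4 percentage points of the share among all tested genes.

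**Figure D4:**
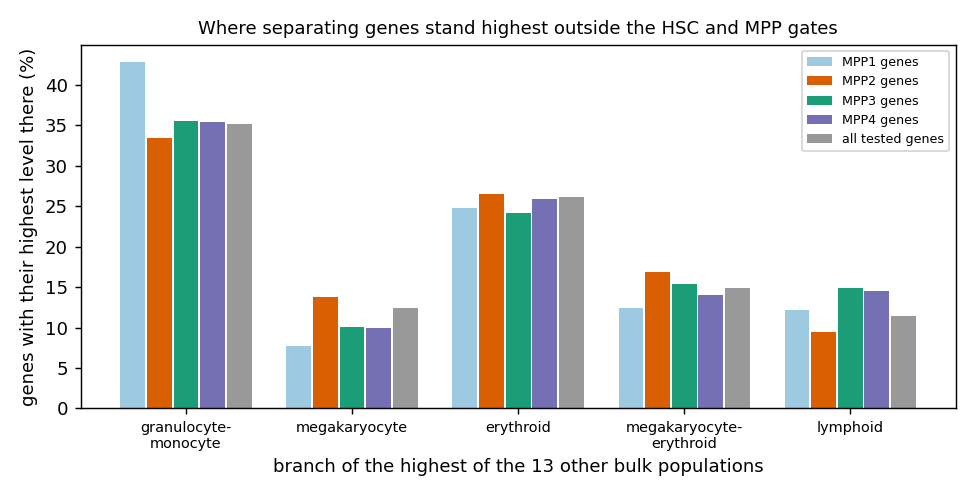
Bars give the percentage of the genes separating each MPP that stand highest in a population of each branch, among the 13 bulk populations other than HSC and the MPPs, with all tested genes in grey. The bars of MPP2, MPP3 and MPP4 lie within 4 percentage points of the grey bar in each branch, while 42.9% of MPP1 genes stand highest in the granulocyte-monocyte branch, against 35.2% of tested genes.

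The promoters of the separating genes were searched for 6 motifs on both strands, with no check of overlap between motifs. The site of the GATA factors, searched as AGATAA, was held by 5.61% of the MPP2, 5.39% of the MPP3 and 6.16% of the MPP4 promoters, beside 5.62% of tested genes and 11.4% of all promoters. TTTNGCGC (E2F factors) was held by 2.49%, 2.40% and 3.08% of these sets, beside 3.24% and 1.38%. TGTGGT (RUNX factors) was held by 11.2%, 12.0% and 10.6%, beside 10.6% and 16.9%. CAGCTG (E-box) was held by 13.7%, 13.8% and 14.6%, beside 13.3% and 16.1%, and AACNG (MYB) by 77.3%, 78.7% and 76.8%, beside 79.0% and 80.4%. GAGGAAGT was held by 1.87% of the MPP2 and 3.08% of the MPP4 promoters. For all 6 motifs the shares in the 3 sets lay within 3 percentage points of those among tested genes. For the PU.1 and E2F sites this span cannot show a match, since only 3.36% and 3.24% of tested genes held them. The PU.1 site was held by 6 of 321 MPP2, 15 of 334 MPP3 and 11 of 357 MPP4 promoters. Whether these small counts differ was not tested.

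Bulk MPP1 and HSC could be set beside single cells, since cells labelled MPP1 and HSC were also sequenced one by one, although the single HSC are labelled CD34- and the bulk HSC CD34+. Plates 1 and 2 of each were used, and a further HSC plate of 73 cells was added only as an alternative. Wells with 1 cell and at least 1000 genes at an FPKM of 1 gave 51 and 48 MPP1 cells and 50 and 53 HSC. Of 563 genes 4-fold higher in bulk MPP1 than in bulk HSC, 54.0% were higher in the MPP1 plates (mean over plates of log2 of the mean FPKM + 1), beside 54.3% of all 1454 genes compared. Of 469 genes 4-fold lower in bulk MPP1, 48.4% were lower in the MPP1 plates, beside 45.7% of all genes. Both shares lay within 3 percentage points of those among all genes.

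The listed genes were looked at apart, in lists chosen with the single-cell results known. Of 33 listed genes 4-fold higher in bulk MPP1, 23 were higher in the MPP1 plates, and both MPP1 plates lay above both HSC plates for 9, beside 19.1% of all genes. Of 11 listed genes 4-fold lower, 9 were lower in the MPP1 plates, and both MPP1 plates lay below both HSC plates for 5, beside 17.0% of all genes. Cd34 averaged 66.5 and 86.8 FPKM on the MPP1 plates, against 33.1 and 37.1 on the HSC plates. Vwf averaged 0.728 and 2.38 FPKM on the MPP1 plates, against 8.04 and 4.16 on the HSC plates.

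Other genes did not follow bulk, and for Fdft1, Ngfrap1, Prim2, Bub1b, Rab27b and Rbl1 the plates of the 2 gates overlapped. Mycn stood at 49.2 FPKM in bulk MPP1 and 6.51 in bulk HSC. It averaged 6.59 and 6.42 FPKM on the MPP1 plates, against 30.0 and 11.5 on the HSC plates. Ifitm1, 202 FPKM in bulk MPP1 and 37.0 in bulk HSC, averaged 322 and 185 FPKM on the MPP1 plates, against 1112 and 616 on the HSC plates. Fdft1, an enzyme of cholesterol synthesis and the gene farthest apart in bulk at 410 FPKM in MPP1 and 0.0311 in HSC, averaged 5.04 and 7.42 FPKM on the MPP1 plates, against 15.2 and 7.33 on the HSC plates. Ngfrap1, the gene farthest apart the other way at 12.5 FPKM in bulk MPP1 and 11618 in bulk HSC, averaged 48.0 and 107 FPKM on the MPP1 plates, against 75.9 and 67.3 on the HSC plates. Other far genes were mixed. Tnfaip3, far higher in bulk MPP1, followed bulk with 17.0 and 12.3 FPKM on the MPP1 plates, against 5.15 and 0.0436 on the HSC plates. Ube2q1, also far higher in bulk MPP1, went against bulk with 4.34 and 0.612 FPKM, against 15.0 and 5.59.

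**Figure D5:**
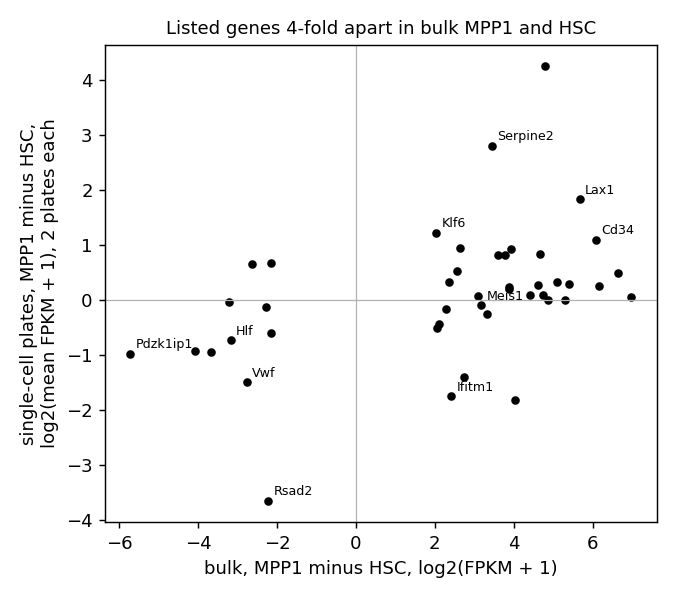
Each point is a listed gene 4-fold or more apart between bulk MPP1 and bulk HSC, with the bulk log2 difference (MPP1 minus HSC, FPKM + 1) on the horizontal axis and the difference of the plate means on the vertical axis, 2 plates per population. Serpine2 and Cd34 are higher in MPP1 in both, Vwf and Pdzk1ip1 lower in both, and Ifitm1 is higher in bulk MPP1 and lower on its plates.

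The threshold of the separating rule cut through a continuum. In MPP2 the genes just inside it were Atp5j, Setd2, Txndc12, Myc and Tnfrsf21, at 4.04- to 4.12-fold, and those just outside were Gmfb, Acadl, Rsu1, Nat10 and Nol9, at 3.85- to 3.99-fold. In MPP3 G3bp2, Numa1, BC002199, Pdia5 and 1700037H04Rik lay just inside, at 4.02- to 4.09-fold, and Mterfd1, Sf4, Extl3, Tnrc15 and Jundm2 just outside, at 3.97-fold to just under 4-fold. In MPP4 Ric8, Fmr1, Ube2b, Pole3 and Saps3 lay just inside, at 4.01- to 4.09-fold, and Prkag1, Pogz, Papss1, Smarcc1 and AA960436 just outside, at 3.88- to 3.97-fold.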

How the data were processed

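RNA of 1000 sorted cells per population was amplified and sequenced, 1 library each. Per the submitters' processing notes, the authors' tools were Cufflinks 1.2.1, TopHat 1.3.3 and Bowtie2 2.2.1, and the build was mm9. The authors deposited FPKM per gene for the bulk table and the single-cell tables, with no counts or fragment totals. Here, differences were taken on log2(FPKM + 1) with Python 3 libraries (pandas, numpy, scipy), with no scaling, on genes with an FPKM of 10 or more. With 1 library per population no test was made. Gene symbols were matched to RefSeq GRCm38.p6 (18326 by accession, 256 by symbol, 164 by synonym, 109 unmatched), which also gave the promoters. Named genes are the gate and MPP markers, the 15 farthest genes per MPP, every separating gene of a list, the 4 widest-ranging genes of a list, the farthest genes of MPP1 against HSC, and those at the threshold. Any further gene was picked with its values in view. The members and the 24 lists were chosen with earlier results of these data known. Alternatives were another pseudocount (0.1 or 5), scaling, FPKM minimum (1 or 30), fold (2 or 8), and other plates or cells. A few genes of the lists are not reported here by name.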

Additional observations from a re-analysis of the deposited data

How the results depend on the processing

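Of 205 recomputed values, 170 stayed within their limits (1.5 times a count, or the interval of a share) and 35 did not. Some of the 170 could not move, namely the counts of listed genes standing highest in an MPP. A pseudocount does not change which MPP is highest, and these counts already use an FPKM of 1. For them a pseudocount of 0.1 or 5 and a minimum of 1 were no test. With a pseudocount of 5, 246 genes separated MPP2 and 288 MPP4. After quantile normalization, which gives every library one distribution, 773, 813 and 796 genes were lower than HSC in MPP2, MPP3 and MPP4. Beside them 773, 812 and 804 genes were higher. A minimum FPKM of 1 takes in more genes: 1027 genes were higher than HSC in MPP1 and 1512 in MPP2, and 765 were lower in MPP3. A minimum of 30 takes in fewer: 220, 249 and 249 genes separated MPP2, MPP3 and MPP4, 369, 543, 583 and 584 were higher than HSC in MPP1 to MPP4, and 318, 300, 305 and 293 were lower. At that minimum 1 megakaryocyte-erythroid factor, 1 erythroid, 2 megakaryocyte, 2 replication and 4 mitosis genes stood highest in MPP2, 3 granulocyte-monocyte genes in MPP3, 3 lymphoid genes in MPP4 and 2 stem cell genes in MPP1. A distance of 8-fold left 226, 243 and 283 separating genes in MPP2, MPP3 and MPP4. With 2.14% of the MPP4 level taken off MPP3 and 0.569% of the MPP1 level off HSC, a choice made after seeing the data, 377, 407 and 439 genes separated MPP2, MPP3 and MPP4.

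On the plates, the mean of log2 values over cells put 59.6% of the bulk-higher and 38.6% of the bulk-lower genes in the bulk direction, beside 59.9% and 40.1% of all genes. Leaving out 1 plate at a time gave 48.3% to 55.1% and 47.1% to 53.1%, beside 48.6% to 56.1% and 43.9% to 51.3% of all genes. No paired analysis was possible because each bulk population has 1 library and no label ties an MPP1 plate to an HSC plate. Fragment totals are not in the files, so levels far below 1 FPKM, mainly in the shallow MPP2 library, carry no interval. The bulk differences have no replicate check.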

Other observations

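Some genes reached an FPKM of 10 in 1 bulk library and stayed under 1 in the other 17. There were 16 such genes in MPP1, 10 in MPP2, 8 in MPP3 and 10 in MPP4, against 16 in HSC. The 13 other populations held 5 to 44 of them, with a median of 8. As shares of the genes with an FPKM of 10, MPP1 held 1.45%, MPP2 0.68%, MPP3 0.54%, MPP4 0.64% and HSC 1.70%. In the 13 others the share ran from 0.23% to 3.61%, with a median of 0.48%. Nr3c2 and Ccnyl1 were among those of MPP2, Id1 and Ednra among those of MPP3 and Lax1 among those of MPP1. The named genes were picked with their values in view. With 1 library per population whether a second library would show them was not tested.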
